A study of Caenorhabditis elegans with 3 samples.

Results

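P granules are RNA and protein bodies that sit around the nuclei of Caenorhabditis elegans germ cells, and the genes described here encode their core components. The set was defined by gene symbol as glh-1, glh-2, glh-3, glh-4, pgl-1, pgl-2, pgl-3, deps-1, cgh-1 and car-1. Of these 10 genes, 9 had a probe with that single symbol on the array, on 11 of the 20000 probes. No probe with the single symbol deps-1, which promotes P granule assembly, was among those named here, so that gene was not analysed. All 11 probes had a value on all 3 arrays, so no member was lost to a missing value.

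The study hybridised RNA of adult hermaphrodites, labelled only with the code TP09, on 3 two-colour arrays, each with its own RNA prep (1 group, n = 3). The other channel of every array held a wild-type mixed reference RNA. The adult RNA was in the same channel on every array, so a gene-specific difference between channels cannot be told apart from one between the RNAs. The labels used here do not give the genotype, exact age or culture of the adults, or the stages mixed into the reference, so strain, stage and tissue all enter each ratio. They do not tell if the preps stem from different worm cultures; the p-values below therefore reflect variation among preps that could be purely technical.

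Each value is the log2 of the adult level over the reference level of the same gene on the same array, relative to the median probe of that array. The labels do not state which channel was divided by which. Adult over reference was taken as the likely direction, because the adult RNA is in channel 2 and is named before the reference; with the other direction every higher value below would be a lower one. A ratio says nothing of how abundant a transcript is, and spot intensities were not used here, so levels of different genes were not ranked against each other and no gene could be called above or below background. The values present numbered between 19807 and 19899 per array, and the number of arrays limits the precision.

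P granules hold maternal and germline messenger RNAs and small RNA pathway proteins, and pass from the oocyte to the germ cell precursors of the embryo. In adult hermaphrodites they are found in the dividing, meiotic and oocyte-forming regions of the gonad. The PGL proteins are scaffolds that condense into droplets. The GLH proteins are helicases related to the germ cell protein Vasa and help to hold the granules at the nuclear envelope. CGH-1 and CAR-1 bind stored messenger RNAs and also belong to the P bodies of somatic cells, where RNA is decapped and decayed.

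All 9 measured P granule genes were higher in the adult RNA by limma over the 3 arrays together, with Benjamini-Hochberg adjustment over all genes. The log2 ratio of each gene was above 0 on each of the 3 arrays. Of the 15092 genes tested, 20.9% were called higher, 23.5% lower and 44.4% in either direction. The mean log2 ratios of the 9 genes ran from 0.74 (pgl-2) to 2.50 (glh-1), with a median of 2.06 against -0.02 for all genes tested. In whole-worm RNA, more germ cells per worm and more of a transcript per germ cell cannot be told apart. Of the 9 genes, 8 had a mean over 2-fold, as had 987 (6.54%) of all genes tested, and 5 had a mean over 4-fold, as had 48 (0.318%). For 7 of the 9, at least 99% of the genes tested had a lower mean ratio, and only glh-3 and pgl-2 fell short of that.

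**Figure D1:**
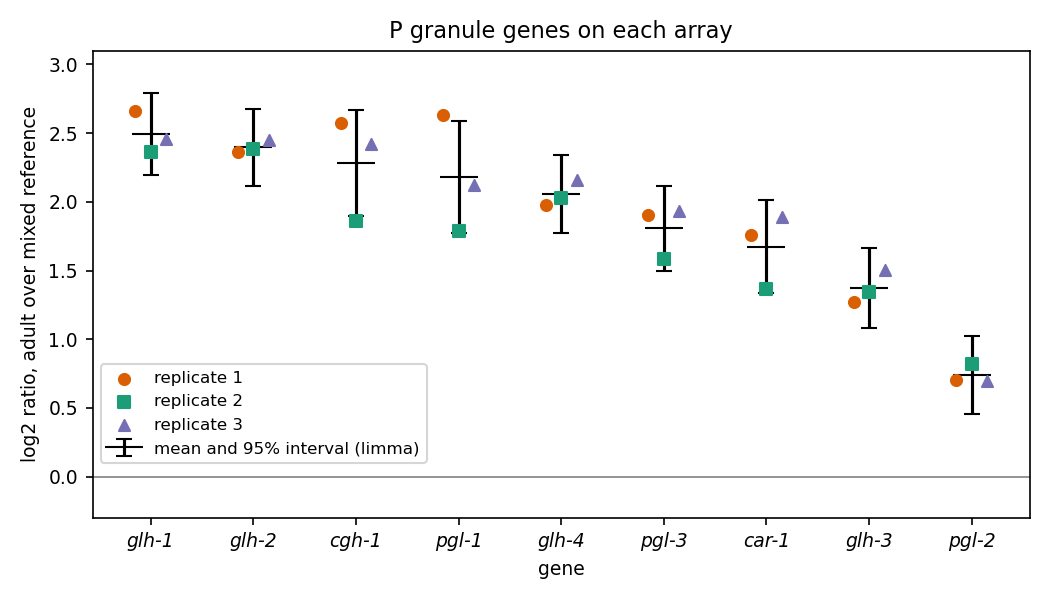
Log2 ratio of adult over mixed reference (vertical axis) for the 9 measured P granule genes (horizontal axis, ordered by mean), with a symbol for each of the 3 arrays; horizontal bars are means and error bars are the 95% confidence intervals of limma. All points lie above 0, and the values of pgl-2, between 0.69 and 0.82, lie below those of every other gene.

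Among the scaffold genes, pgl-1 stood at 2.63, 1.79 and 2.12 on replicates 1, 2 and 3. Its arrays spread widely, with replicate 1 well above the other two, and the SD of 0.42 exceeded that of 86.9% of the genes tested. The mean of 2.18 ± 0.42 (SD, n = 3) is 4.53-fold over the reference (adjusted p = 0.000116, limma). The related gene pgl-3, whose protein also carries an RNA-binding tail rich in arginine and glycine, stood at 1.91, 1.58 and 1.93 on the 3 arrays. Replicate 2 was the low one, as it was for pgl-1, and the mean of 1.81 ± 0.20 is a 3.50-fold difference (adjusted p = 8.60e-05, limma).

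The third scaffold gene, pgl-2, whose protein lacks that tail and is found in P granules of the post-embryonic germ line, stood at 0.70, 0.82 and 0.69. These 3 values lay close together and were the lowest of all members on each array. Their mean of 0.74 ± 0.07 is a 1.67-fold difference (adjusted p = 0.00208, limma), with a 95% confidence interval from 0.45 to 1.02. Of all genes tested, 88.3% had a lower mean than pgl-2, against 99.8% for pgl-1. Tested against a change of 1.5-fold in place of none, pgl-2 was not called (adjusted p = 0.506, limma's treat), while the other 8 genes were; that test called 6.04% of all genes higher.

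Of the Vasa-related helicase genes, glh-1 stood at 2.66, 2.37 and 2.46 on replicates 1 to 3, with replicate 1 the highest. It had the highest mean of the members, 2.50 ± 0.15, a 5.64-fold difference (adjusted p = 2.80e-05, limma), and ranked 21 among the 15092 genes. The glh-2 values were 2.36, 2.38 and 2.45, with a mean of 2.40 ± 0.05, a 5.27-fold difference (adjusted p = 2.75e-05). With this centring they were the tightest of any member, and their SD was lower than that of all but 3.74% of genes. When arrays were centred within 32 runs of table rows, as described below, the SD of glh-2 was 0.16 and that of glh-1, at 0.027, was the smallest. GLH-1 and GLH-2 are similar in sequence, so their probes can share signal and the values may not be separate measurements.

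The gene glh-4, a more distant family member, was read by 2 probes that averaged 1.98, 2.03 and 2.16 on the 3 arrays, with replicate 3 highest and little spread. The mean of 2.06 ± 0.09 is a 4.16-fold difference (adjusted p = 4.30e-05, limma). That small SD hid a disagreement between the probes: the first read 1.61, 2.24 and 2.22, and the second 2.35, 1.82 and 2.10. The first probe was 0.75 below the second on replicate 1 and 0.42 above it on replicate 2, so the probes had like means (2.02 and 2.09) but opposite outlying arrays.

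The fourth helicase gene, glh-3, stood at 1.274, 1.341 and 1.501, below the other glh genes on every array. Its mean of 1.37 ± 0.12 is a 2.59-fold difference (adjusted p = 0.000175, limma), and 97.7% of genes tested had a lower mean. Any signal shared between glh copies on the array was not tested.

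The RNA storage helicase gene cgh-1, of the family of yeast Dhh1, stood at 2.58, 1.86 and 2.42 on replicates 1 to 3. Replicate 2 lay well below the others, and the mean was 2.29 ± 0.37, a 4.87-fold difference (adjusted p = 8.14e-05, limma). Its partner gene car-1, which encodes a protein with a Sm-like fold, stood at 1.76, 1.37 and 1.89, again lowest on replicate 2. The mean of 1.67 ± 0.27 is a 3.19-fold difference (adjusted p = 0.000149). The 2 car-1 probes had the same mean of 1.67 and differed most on replicate 2, where they read 1.55 and 1.18.

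**Figure D2:**
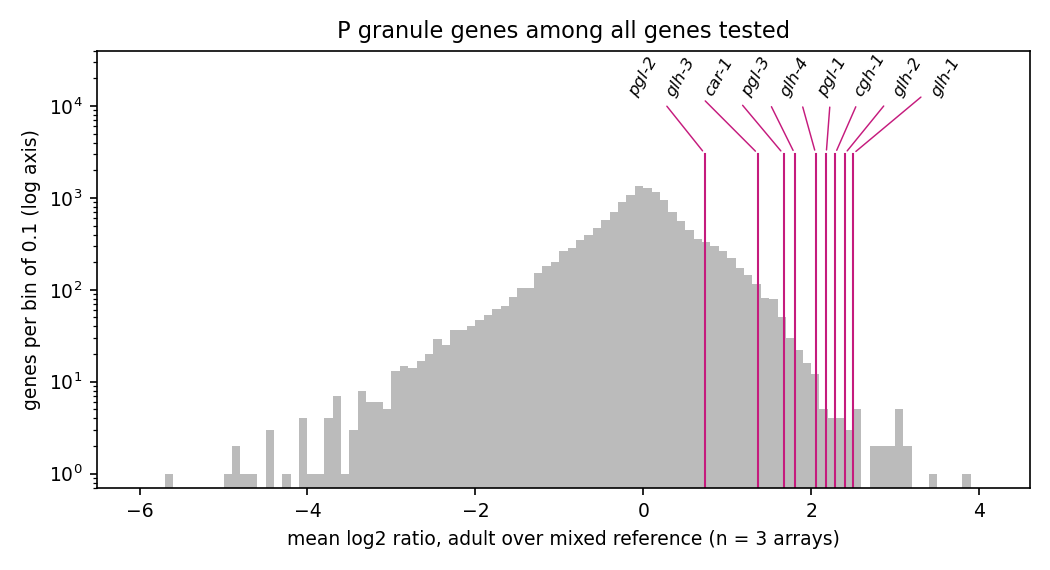
Number of genes (vertical axis, log scale) by mean log2 ratio of adult over mixed reference (horizontal axis, bins of 0.1) for the 15092 genes tested; vertical lines mark the means of the 9 P granule genes. The lines lie in the upper tail, from pgl-2 at 0.74 to glh-1 at 2.50.

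Ordered by mean log2 ratio, the genes ran glh-1, glh-2, cgh-1, pgl-1, glh-4, pgl-3, car-1, glh-3 and pgl-2. The array ranges of neighbours in that order overlapped in 6 of the 8 steps, so the ranges do not separate most neighbours. Taken within each array, the overlapping steps of pgl-3 over car-1 (0.14 ± 0.09) and car-1 over glh-3 (0.30 ± 0.24) were positive on 3 of 3 arrays. The sign of the other overlapping steps differed between arrays. The steps without overlap were that from glh-4 to pgl-3, by 0.25 ± 0.19, and that from glh-3 to pgl-2, by 0.63 ± 0.15. With arrays centred within 32 runs of table rows, as described below, the ranges of glh-4 and pgl-3 did overlap. Their means were then 2.09 and 1.98, and pgl-3 was the higher on replicate 1 (2.15 against 2.06). The ranges of glh-3 and pgl-2 stayed apart. Replicate 2 gave the lowest value for 5 of the 9 genes and for 30.1% of all genes tested, a share that covers genes of any ratio. The median over members was 1.98, 1.79 and 2.12 on replicates 1, 2 and 3. The log2 ratios of all probes also spread least on replicate 2, with SDs of 0.85, 0.69 and 0.80 on replicates 1, 2 and 3. The part of that narrower spread in the low replicate 2 values of members was not tested.

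Differences between members, within and across families, were taken on each array for 7 pairs, and no pair could reach a p under 0.25 with 3 arrays in an exact two-sided permutation of signs. The log2 ratio of pgl-1 exceeded that of pgl-2 by 1.93, 0.97 and 1.43 on replicates 1 to 3, a mean difference of 1.44 ± 0.48 (exact p = 0.25, adjusted p = 0.292 over the 7 pairs). For glh-1 over glh-3 the differences were 1.39, 1.03 and 0.96, with a mean of 1.12 ± 0.23 and the same p-values. For both pairs all arrays had the same sign, and the ranges of the genes did not overlap.

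The difference of cgh-1 over car-1 was 0.61 ± 0.18 and that of glh-1 over glh-4 was 0.44 ± 0.21, each positive on 3 of 3 arrays (exact p = 0.25, adjusted p = 0.292). The latter was 0.19 when arrays were centred within 32 runs of table rows. It was 0.34 when they were centred within 4 repeating positions of those runs, both described below. For glh-1 over pgl-1 the difference was 0.32 ± 0.27, with the same p-values and overlapping ranges, and it was 0.18 without replicate 2. Between glh-1 and glh-2 it was 0.10 ± 0.18 (exact p = 0.75, adjusted p = 0.75) and was positive on 2 of 3 arrays, with a mean of -0.0057 without replicate 1. The mean of pgl-1 lay 0.37 ± 0.30 above that of pgl-3 (exact p = 0.25, adjusted p = 0.292), but this was 0.20 without replicate 1. This difference turned to -0.072 when arrays were centred within 32 runs of table rows, as described next. With arrays centred within the 4 repeating positions it was 0.18.

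Replicate 1 stood apart from the other arrays, and its deviation followed the order of probes in the table. Across genes, which are not independent replicates, its Pearson's r was 0.82 and 0.85 with replicates 2 and 3, against 0.92 between those. With the table cut into 32 equal runs of rows, replicate 1 lay 0.24 above the mean of the others at the first of 4 repeating positions and 0.24 below it at the fourth. Of the 11 member probes, 5 lay at the first position: those of glh-1, glh-2, pgl-1 and cgh-1 and the second of glh-4. The first glh-4 probe and the pgl-3 probe lay at the fourth.

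When each array was centred within those runs, all 9 genes were still called higher, as were 20.4% of all genes, and their means moved by between -0.28 (pgl-1) and 0.17 (pgl-3). The excess of replicate 1 over the mean of the others shrank from 0.68 to 0.30 for pgl-1 and from 0.43 to 0.09 for cgh-1, and the deviation was also smaller for glh-1, glh-4 and car-1. It grew for the other genes, from -0.06 to -0.26 for glh-2, from -0.15 to -0.36 for glh-3, from -0.06 to -0.19 for pgl-2 and from 0.15 to 0.26 for pgl-3. This centring therefore did not bring replicate 1 nearer the other arrays for every gene. The replicate 1 values of the glh-4 probes drew closer, from 1.61 and 2.35 to 1.89 and 2.23, while the means of the car-1 probes moved apart, from 1.67 each to 1.49 and 1.75. Replicate 2 remained the lowest array for pgl-1, pgl-3, cgh-1 and car-1, and pgl-2 remained the lowest gene, at 0.52 ± 0.12.

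**Figure D3:**
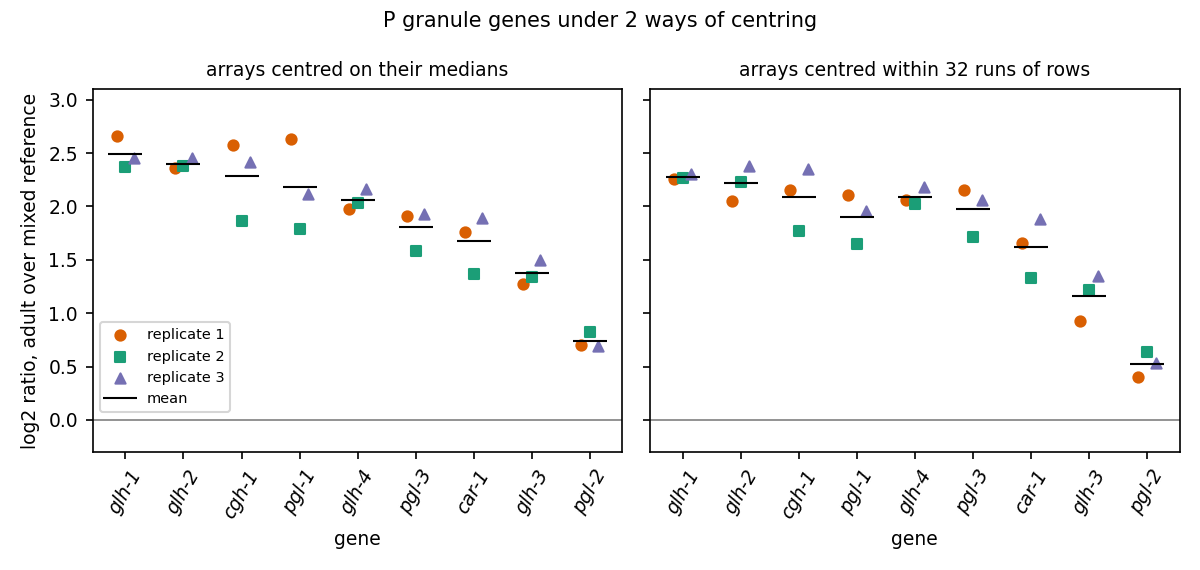
Log2 ratio of adult over mixed reference (vertical axis) on each of the 3 arrays for the 9 P granule genes, with arrays centred on their medians (left) and within 32 runs of table rows (right); horizontal bars are means. The replicate 1 point of pgl-1 moves from 2.63 to 2.11, and all points stay above 0.

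Other proteins of germ granules and the small RNA pathways housed there went the same way, at a lower median ratio. Of 36 measured genes of the 45 listed, 32 were higher, 0 were lower by limma (also 0 at an unadjusted p under 0.05) and 4 were not called, with a median log2 ratio of 1.24 against 2.06 for the 9 P granule genes. The highest were the Argonaute gene wago-4 at 2.38 ± 0.10, the zinc finger gene mex-1 at 2.00 ± 0.05 and the Piwi gene prg-1 at 1.97 ± 0.14. Only wago-4 of these 36 had a mean above the P granule median, but 31 had a mean above that of pgl-2, the lowest P granule gene. The genes not called were the sperm-line Argonaute genes alg-4 at -0.16 ± 0.31 and alg-3 at 0.00 ± 0.17, znfx-1 at 0.29 ± 0.21 and, named after its value was seen, rde-2 at 0.41 ± 0.30.

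The genes reported to encode binding partners of GLH proteins did not share one direction. The COP9 signalosome subunit gene csn-5 was higher at 0.45 ± 0.11 (adjusted p = 0.0219, limma), and the JNK-type kinase gene kgb-1 was lower at -0.82 ± 0.03 (adjusted p = 0.00124). The zyxin gene zyx-1 stood at 0.08 ± 0.09 and was not called (adjusted p = 0.632).

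Genes of P bodies and messenger RNA decay, the other setting of cgh-1 and car-1, were mostly higher. Of 27 measured genes of 34 listed, 21 were higher, 2 were lower and 4 were not called, with a median log2 ratio of 0.74. The highest were the decapping activator gene patr-1 at 1.66 ± 0.06 and the Y-box genes cey-2 at 1.33 ± 0.19 and cey-4 at 1.28 ± 0.18. All 27 lay below cgh-1 (2.29) in mean ratio. The mean of patr-1 was within the spread of car-1 (1.67 ± 0.27), and on replicate 2 patr-1 (1.73) was above car-1 (1.37). The lower genes were the poly(A)-binding protein gene pab-2 at -0.57 ± 0.32 and ain-1, a gene of microRNA silencing, at -0.47 ± 0.23, while lsm-7 stood at -0.32 ± 0.06 and was not called.

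Other helicase genes, of the DEAD-box family of the glh genes and cgh-1 or related to it, were also mostly higher than the reference. Their mean ratios were lower than those of glh-1, glh-2, glh-4 and cgh-1, but glh-3 was not set apart from them. The mean of glh-3, at 1.37, was below those of ddx-19, inf-1 and ddx-15. Of 10 measured genes of 17 listed, 9 were higher and 1 was not called, with a median of 0.88. They were led by ddx-19 at 1.71 ± 0.11, the translation initiation helicase gene inf-1 at 1.66 ± 0.02 and ddx-15 at 1.55 ± 0.22. At the low end, ddx-46 stood at 0.73 ± 0.33, ddx-52 at 0.60 ± 0.15 and ddx-17, not called, at -0.23 ± 0.11.

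**Figure D4:**
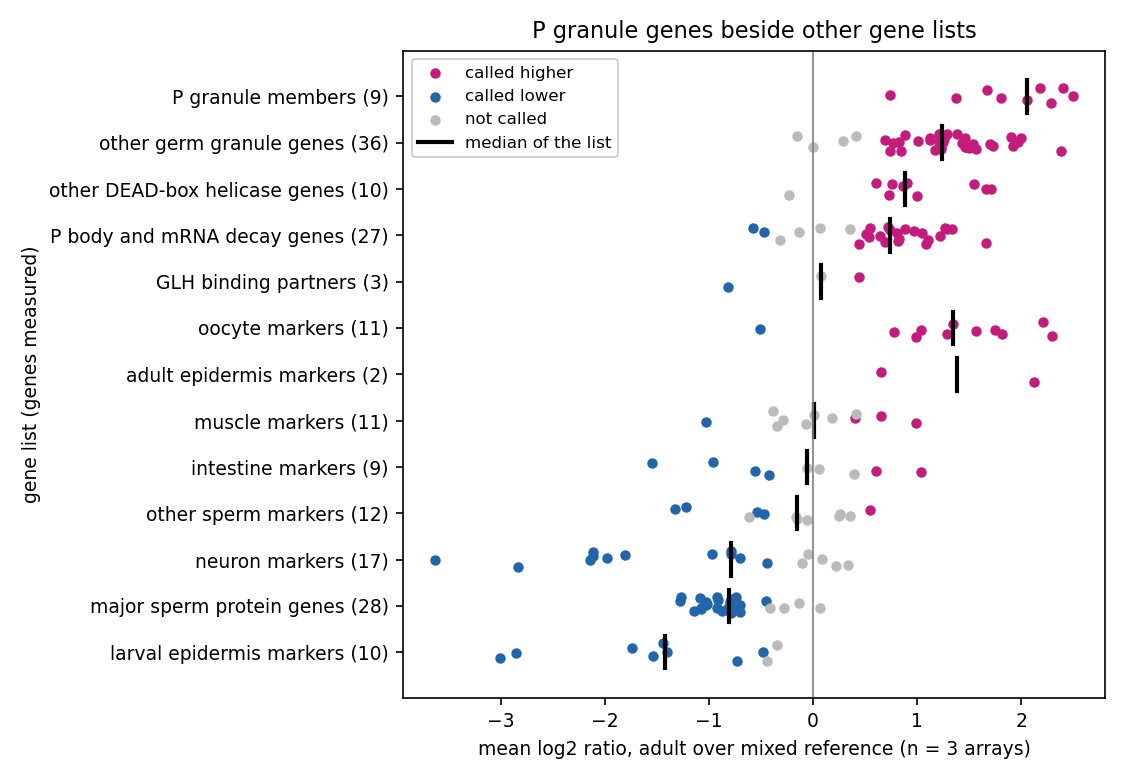
Mean log2 ratio of adult over mixed reference (horizontal axis, n = 3 arrays) of each measured gene in the P granule set, 4 related lists and 8 marker lists (vertical axis, number measured in parentheses; points are spread vertically for clarity only). Colours give the limma call at an adjusted p under 0.05 and black bars the list medians, 2.06 for the P granule genes and 1.24 for other germ granule genes.

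Marker genes of other cells were called to varying degrees, and their part in the P granule ratios was not tested. Among all genes tested, 20.9% were called higher and 23.5% lower. For muscle genes the shares were 27.3% and 9.09%, and for other sperm genes 8.33% and 33.3%. The lists were not tested against the shares of all genes. The oocyte and eggshell markers, 11 of which were measured, had 10 higher and 1 lower, with a median of 1.34 and the yolk receptor gene rme-2 highest in size at 2.30 ± 0.42. Major sperm protein genes had 24 lower and 4 not called of 28, led by msp-51 at -1.28 ± 0.43. These close copies can share signal. Other sperm genes had 1 higher, 4 lower and 7 not called of 12, with spe-27 at -1.32 ± 0.39.

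Larval epidermis genes had 8 lower and 2 not called of 10 (grl-7 at -3.01 ± 0.37), and neuron genes had 12 lower and 5 not called of 17 (flp-1 at -3.63 ± 0.33). Muscle genes had 3 higher, 1 lower and 7 not called of 11, with a median of 0.006. They ran from tni-1 at -1.02 ± 0.10 to tnt-2 at 0.98 ± 0.29. Intestine genes had 2 higher, 4 lower and 3 not called of 9, with a median of -0.06. They ran from cpr-1 at -1.54 ± 0.47 to vit-2 at 1.03 ± 0.63. The adult collagen genes col-19 and col-7 were higher, at 2.12 ± 0.15 and 0.65 ± 0.33. No levels were available, so no marker could be said to be absent.

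The 5 genes outside the set whose values lay nearest to the median profile of the P granule genes were F34D10.4, prg-1, mrp-4, F01G4.4 and col-93. Their root mean square differences from that profile over the 3 arrays were 0.05, 0.06, 0.07, 0.08 and 0.09 on the log2 scale. With 3 arrays and 15092 genes, such likeness is a description of these arrays only. Of the 5, prg-1, at 2.05, 1.81 and 2.04, is itself in the list of other germ granule genes.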

How the data were processed

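The values deposited are log2 ratios, 1 for each probe on each array. The base of the log follows from the values themselves: undoing log2 gave a ratio with exactly 3 decimals (within 0.005 thousandths) for 100% of the 58013 deposited values within 2 of 0, while undoing a natural log did so for 0.974% and undoing log10 for 1.08%. No source used here gives the dyes, the scanner, the background treatment, spot filters or any centring by the authors. The array medians were 0.06, 0.00 and 0.02.

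Gene names came from the array's platform annotation in GEO (15655 with 1 symbol, 198 with several, 4147 with none), and 15569 matched the WBcel235 RefSeq gene table. Several-symbol and unnamed probes were left out. Arrays were centred on their medians, probes of a gene averaged, and 15092 genes complete over the 3 arrays tested against 0 with limma 3.58.1 (R 4.3.3; lmFit, eBayes, prior of 5.3 and 2 residual degrees of freedom), at an adjusted p under 0.05. Variation of the reference RNA itself is not in this test. The fit was also run on simulated data whose genes had the moderated SDs of these genes. That setting was chosen after a run with the raw SDs had given no calls. No result of the simulation is given, so it does not show how well the fit works on these data.

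The members and lists were chosen with earlier results of these data known. Every measured member is named. In each related list the 3 highest and 3 lowest genes are named, with every GLH partner. In each marker list the gene with the largest absolute ratio is named. Also named are the highest muscle and intestine genes, both adult collagens and the 5 nearest profiles. Alternatives changed the centring, normalization, averaging, prior, weights, null and replicates.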

Additional observations from a re-analysis of the deposited data

How the results depend on the processing

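Of 13 alternatives, 12 kept all 9 P granule genes called higher, and the test against a 1.5-fold change called 8, ending the call of pgl-2 (log2 ratio 0.74, adjusted p = 0.506, limma's treat). That test, which asks for a larger effect, also called 2076 genes in all in place of 6698. It called 8 P body and decay genes in place of 23, and 3 other DEAD-box and related helicase genes in place of 9. Accepting values on at least 2 arrays could not change a member's ratio, because all 11 member probes were complete. Testing probes singly could not change it for the 7 genes with 1 probe. Leaving out each replicate gave 4948 to 7102 genes called, and the median of the members lay between 1.95 and 2.07. The difference of glh-1 over glh-2 turned to -0.0057 without replicate 1, and ran from there to 0.15 over the replicates left out. Centring within 32 runs of rows turned the difference of pgl-1 over pgl-3 from 0.37 to -0.072. It moved that of glh-1 over glh-4 from 0.44 to 0.19. Centring within the 4 repeating positions gave 0.18 and 0.34 for these pairs. The cause was not tested. No paired analysis was possible because the study has 1 group of arrays. A single probe for 7 of the 9 genes, no intensities and 3 arrays limit what can be said of any 1 gene.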
